A study of Mus musculus with 6 samples.

Results

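The ephrin ligands of the mouse were measured in astrocytes, the supporting glia of the brain, from 2 regions. Ephrins are short-range signals that stay on the surface of the cell that makes them and bind Eph receptor tyrosine kinases on neighbouring cells. All 8 members of the family were taken by gene symbol, 5 ephrin-A ligands (Efna1 to Efna5) and 3 ephrin-B ligands (Efnb1 to Efnb3), out of 18193 named genes on the array. They were represented by 17 probe sets, of which 15 were bright enough to be tested, and none of the 17 was annotated to a second gene. Astrocytes of the cerebellum (3 arrays) were compared with astrocytes of the neocortex (3 arrays), from total RNA that was amplified, labelled with biotin and hybridised to single-colour arrays. The labels name the ICR strain for the neocortical arrays and no strain for the cerebellar ones, so a regional difference and one of strain cannot be told apart. They give no genotype, treatment or age, do not say how the astrocytes were obtained, and do not state whether arrays of a region came from separate animals or preparations. The p values therefore measure only the spread between these arrays, which may be technical.

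Ephrin-A ligands are held to the membrane by a lipid anchor and bind mainly EphA receptors, while ephrin-B ligands span the membrane, bind mainly EphB receptors and carry a cytoplasmic tail that signals back into their own cell. EphA4 is an exception that binds ligands of both classes. In the brain the system is known for repulsive axon guidance and for the sorting of cells at boundaries. In mouse hippocampus, ephrin-A3 on astrocytes acts on EphA4 of dendritic spines.

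Signal is in arbitrary units after quantile normalization, and levels of different probe sets were not set against each other. Over the whole array 10.6% of the 27022 tested probe sets passed the threshold, an adjusted p of 0.05 in limma, with 1319 (4.88%) higher and 1545 (5.72%) lower in cerebellar astrocytes. The split was 819 and 2105 when arrays were scaled to a common median, and 1586 and 1447 with the values as deposited. Arrays correlated at 0.932 to 0.938 (Spearman's rho over probe sets) within the cerebellar group, at 0.942 to 0.945 within the neocortical group, and at 0.922 to 0.933 across them. RNA integrity, gauged by Gapdh control probes as 3′ over 5′ signal, gave ratios of 0.913 to 1.07 on cerebellar and 0.865 to 0.883 on neocortical arrays. The same ratio from actin control probes was 1.42 to 1.62 on cerebellar and 1.35 to 1.44 on neocortical arrays, with overlap. The summed signal of 11 astrocyte markers was 159364 to 229640 on cerebellar and 220377 to 267940 on neocortical arrays. None of the 11 stayed within the range of the bacterial control probe sets on every array (up to 269.2 in the deposited values, the dim range). Aqp4 passed as higher in cerebellar astrocytes (1.54-fold). Glul (1.76-fold), Slc1a3 (1.75-fold, at 1 of 6 probe sets) and Aldoc (1.74-fold) passed as lower. The remaining 7 did not pass, among them Gfap, 2.16-fold lower by its brightest probe set, though 1 of its 3 probe sets passed. Markers of other cells were also present. Those of fibroblasts and meninges summed to 58098 to 221534 on cerebellar and 59192 to 98824 on neocortical arrays, and none of the 8 passed. Those of ependyma and choroid plexus summed to 7880 to 13688 on cerebellar and 14107 to 18381 on neocortical arrays, without overlap. Of the 5 tested, 2 were lower in cerebellar astrocytes (Otx2, 12.1-fold, and Folr1, 4.19-fold). Otx2 read 278.2, 75.8 and 97.3 on the cerebellar arrays, in or near the dim range. Sums of the oligodendrocyte lineage, neuronal and microglial markers overlapped between regions. Most of the oligodendrocyte lineage sum was Cnp and most of the neuronal sum was Stmn2, so these overlaps say little about the other markers. In the oligodendrocyte lineage Mbp was 6.27-fold higher and Olig2 5.99-fold lower in cerebellar astrocytes. Mbp read 209, 58.8 and 288.4 on neocortical arrays, in or near the dim range. Of the neuronal markers Gad1 was 3.55-fold lower, with cerebellar values of 152.2 to 162.1 in the dim range, and Syt1 was lower too. The other neuronal markers tested, Nefm, Rbfox3 and Stmn2, did not pass and had log2 differences of 0.75, 0.56 and 0.14. Neocortical values of Nefm (214.5 to 337.1) and Rbfox3 (158.8 to 212.5) were in or near the dim range. The part of these cells in the ligand values below was not tested.

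Efnb2, the transmembrane ligand of EphB4 that also marks arteries, was the ephrin ligand gene that passed the test, and it was higher in cerebellar astrocytes. By brightest probe set 1 of 8 ligand genes was higher and none was lower, against 5.3% higher and 7.36% lower among the 12616 genes tested, so the family's share of calls was near that of the array. At an unadjusted p under 0.05 in limma there were 3 of the 8 genes, against 27.9% of all genes. The median log2 difference, cerebellar minus neocortical, was -0.23 for the 8 genes and -0.01 for all genes. It was -0.30 for the 5 ephrin-A genes, of which 4 had a negative difference, and 0.05 for the 3 ephrin-B genes.

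The 250 bases upstream of the transcription start are shown for Efnb2, the gene that passed, for Efnb1, a ligand of the same class that did not, and for Efna5, whose groups separated in the opposite direction without passing. They are RefSeq sequences of GRCm38.p6, written 5′ to 3′ on the strand of the gene. Capitals mark CCAAT boxes (CCAAT or ATTGG) and GC boxes (GGGCGG or CCGCCC).
Efnb2: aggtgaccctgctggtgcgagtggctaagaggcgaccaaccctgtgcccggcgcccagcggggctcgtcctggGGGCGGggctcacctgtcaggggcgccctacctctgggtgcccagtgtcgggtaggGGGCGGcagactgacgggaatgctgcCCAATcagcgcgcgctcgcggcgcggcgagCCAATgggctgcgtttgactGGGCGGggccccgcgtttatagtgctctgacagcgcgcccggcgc
Efnb1: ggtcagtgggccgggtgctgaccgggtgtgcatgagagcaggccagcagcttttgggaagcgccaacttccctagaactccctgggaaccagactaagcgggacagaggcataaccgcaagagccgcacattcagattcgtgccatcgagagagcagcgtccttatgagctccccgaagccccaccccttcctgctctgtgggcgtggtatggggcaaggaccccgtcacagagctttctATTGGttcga
Efna5: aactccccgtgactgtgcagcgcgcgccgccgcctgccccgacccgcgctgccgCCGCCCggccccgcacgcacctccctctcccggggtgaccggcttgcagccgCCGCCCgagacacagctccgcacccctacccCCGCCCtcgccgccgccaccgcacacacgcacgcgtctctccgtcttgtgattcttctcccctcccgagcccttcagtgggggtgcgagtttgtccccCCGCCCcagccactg

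The Efnb2 window lies at chr8:8661243-8661492 on the minus strand and holds 2 CCAAT boxes, which begin 95 and 65 bases before the start, and 3 GC boxes, which begin 177, 121 and 45 bases before it. The Efnb1 window (chrX:99135811-99136060, plus strand) holds 1 CCAAT box and no GC box, and the Efna5 window (chr17:62881318-62881567, minus strand) holds 4 GC boxes and no CCAAT box. On either strand a CCAAT box is present in 33.8% and a GC box in 32.7% of the 32851 promoter windows of this length in the table. TAATTA, a core that many homeodomain factors bind, TAATCC, the core bound by OTX factors, and TGGGAA, the core bound by the Notch effector RBPJ, were searched too. They occur in 4.84%, 6.25% and 21.6% of all windows, and the first pair share the letters TAAT. None of the 3 occurs in the Efnb2 or Efna5 window, and the Efnb1 window holds TGGGAA at 2 positions. The table holds 9 windows for 7 of the ligand genes, with Efnb3 missing. These matches describe the letters only, and binding was not measured.

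Efnb2 was measured by 4 probe sets, all listed with the same transcript in the platform annotation. The brightest, 1419639_at, read 10419, 8608 and 10313 on the cerebellar arrays and 5948, 6370 and 4425 on the neocortical arrays. Every cerebellar array lay above every neocortical one, and the group means were 9780.3 ± 1016 in cerebellar and 5581 ± 1023 in neocortical astrocytes (SD for 3 arrays each). The gene was 1.77-fold higher in cerebellar astrocytes, a log2 difference of 0.82 ± 0.148 (SE) with an adjusted p of 0.00979 by limma.

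A second probe set of Efnb2, 1419638_at, read 4542, 3990.5 and 5831 on the cerebellar arrays and 2814, 2328 and 2587 on the neocortical arrays. Its groups did not overlap either, and it was 1.84-fold higher in cerebellar astrocytes (log2 difference 0.88 ± 0.154 SE, limma adjusted p = 0.00839). The third, 1449548_at, read 931, 725.6 and 742.1 against 559.5, 319.5 and 516.4. It separated the groups in the same direction and by a like amount (log2 difference 0.81 ± 0.255 SE) but did not pass (limma adjusted p = 0.0776). With the replicate number as a block its adjusted p was 0.0496, and with the values as deposited it was 0.0481. The fourth, 1449549_at, read 278.5, 171.7 and 166.9 against 345.7, 144.4 and 198.1, in or near the dim range, and its groups overlapped. Its log2 difference was -0.10 (95% confidence interval -1.05 to 0.85, adjusted p = 0.91). The groups did not overlap at 1419638_at, 1419639_at and 1449548_at, so any pairing of arrays gives the same sign there. The same sign in each of 3 same-numbered pairs therefore adds nothing.

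**Figure D1:**
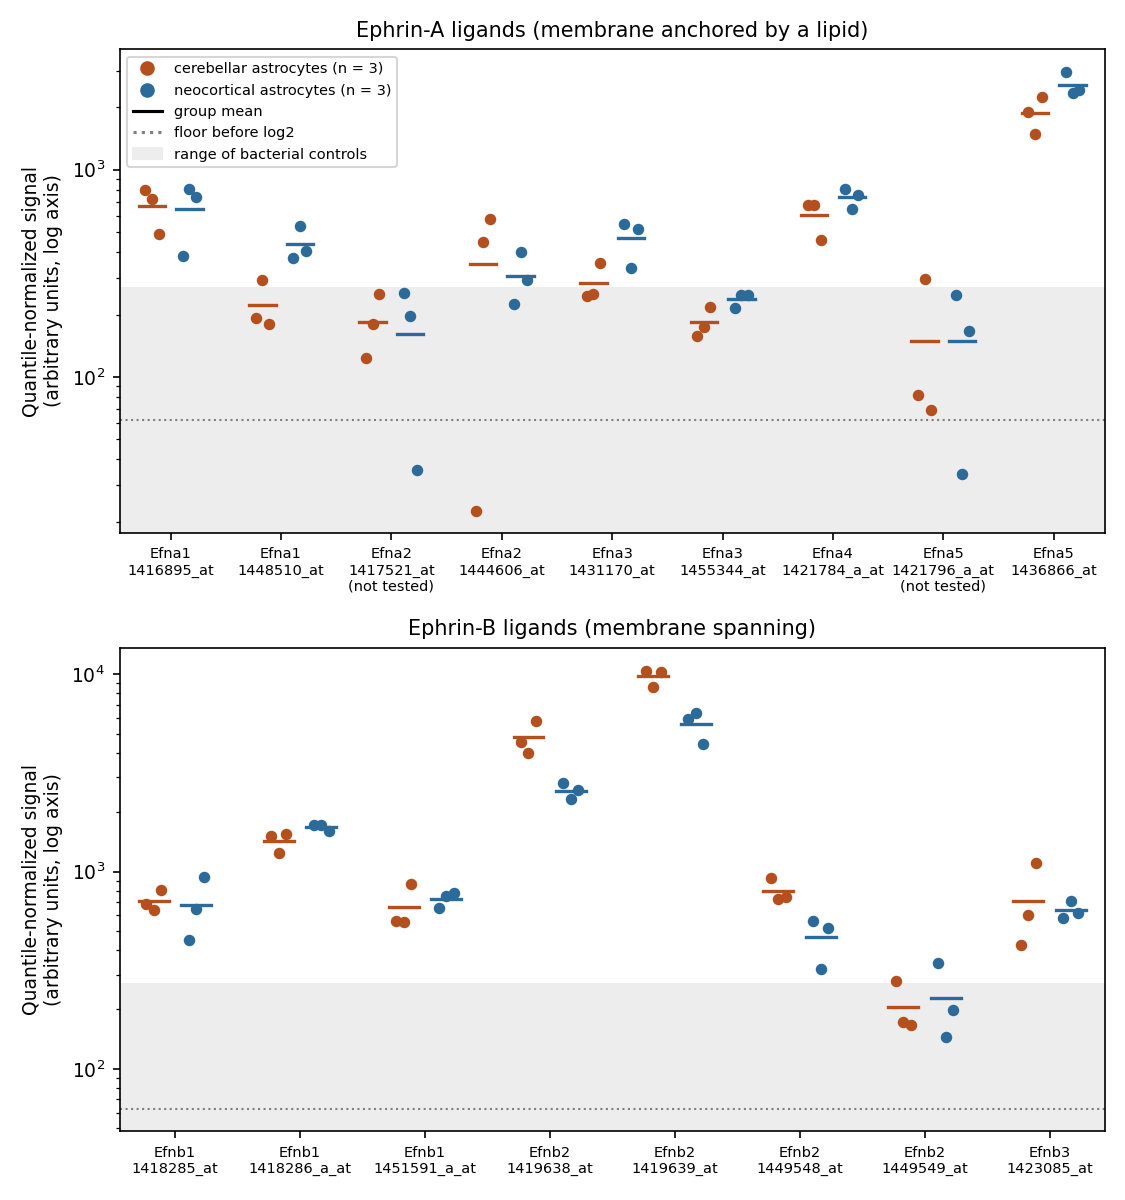
Quantile-normalized signal of the 17 ephrin ligand probe sets on a log axis, with 1 point for each array, cerebellar in orange left of neocortical in blue, and bars for group means. The dotted line is the floor of 62.2. The shaded band is the range of bacterial control probe sets in the deposited values, before quantile normalization, up to 269.2. The 95th percentile of these control values was 116.2. At Efnb2 1419639_at and 1419638_at all cerebellar points lie above all neocortical points.

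The call for Efnb2 depended on the processing at its margin. The brightest probe set kept its direction under all 14 alternatives (log2 differences of 0.61 to 0.93) but missed the threshold with median scaling (0.0581), without the filter on dim probe sets (0.0841) and without the variance trend (0.0521), and the mean of the gene's 4 probe sets gave 0.60 with an adjusted p of 0.0601. With median scaling the median over all probe sets was -0.096, against 0.009 with quantile normalization, and relative to that median the difference of 1419639_at was 0.70 and 0.81. At 1419638_at the call was lost only without the filter (adjusted p = 0.0701), and leaving out any 1 array gave adjusted p values of 0.00695 to 0.0414 there and 0.0123 to 0.034 at 1419639_at.

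**Figure D2:**
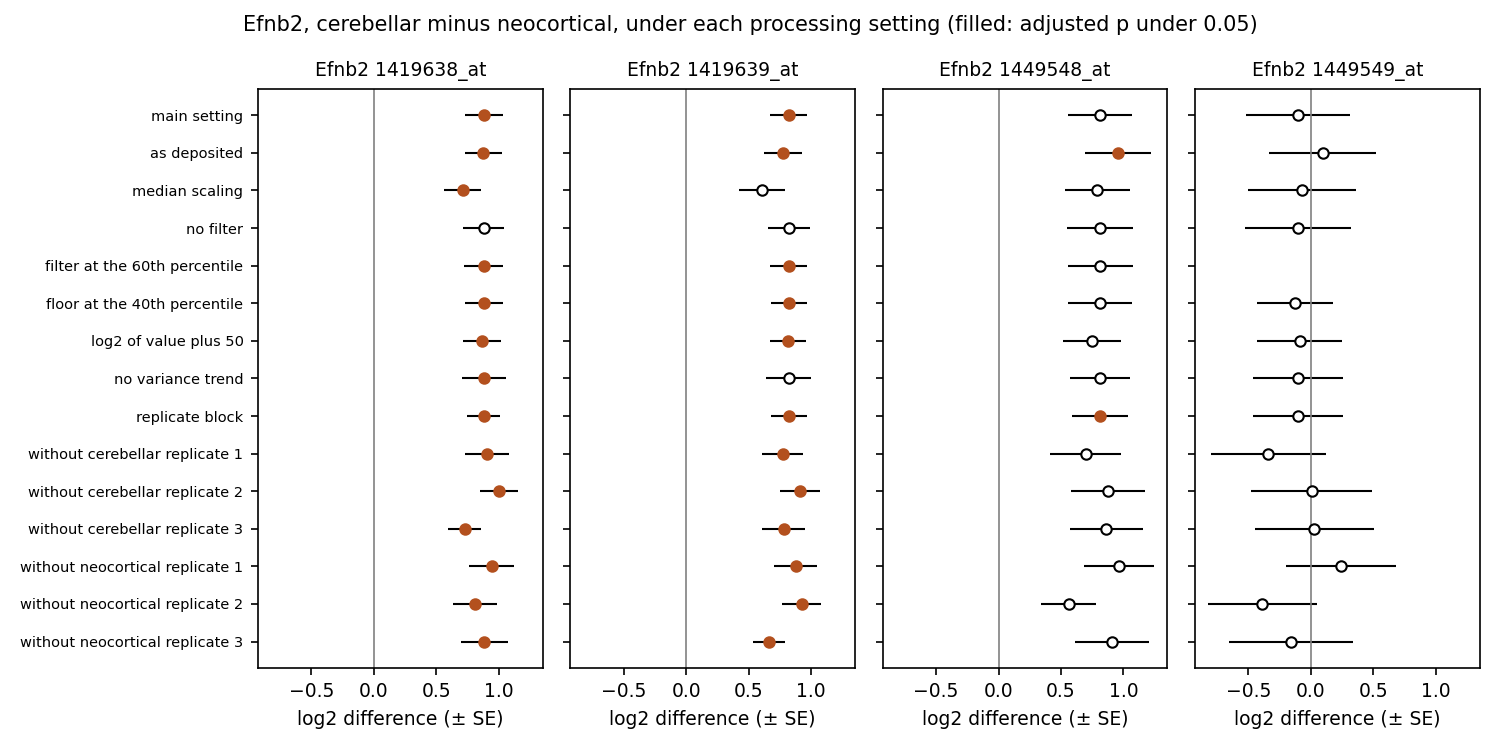
Log2 difference (cerebellar minus neocortical, horizontal axis, with standard error bars) of the 4 Efnb2 probe sets under the main setting and each alternative. Filled points have an adjusted p under 0.05. Points of 1419638_at and 1419639_at stay between 0.61 and 1.00 in every setting, while those of 1449549_at lie on both sides of 0, and that probe set was not kept under the filter at the 60th percentile.

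Efnb2 is also strongly expressed by arterial endothelium and smooth muscle, so markers of vessel cells were read on the same arrays. Of 7 endothelial markers on the array, Cldn5, Pecam1 and Tek stayed within the dim range on every array, and the sum of the 7 was 1480 to 3056 on cerebellar and 2337 to 3212 on neocortical arrays. Of the 3 that were tested, the receptor gene Kdr was lower in cerebellar astrocytes (422.2 ± 49.9 against 1269 ± 324, SD for 3 arrays each, limma adjusted p = 0.00304), while Esam and Cdh5, genes of endothelial junctions, did not pass and had log2 differences of 0.50 and 0.01. Of the 7 pericyte and smooth muscle markers, Abcc9, Kcnj8 and Myh11 stayed within the dim range, and the sum was 89939 to 113182 on cerebellar against 121037 to 134473 on neocortical arrays. Most of that sum was Acta2, the smooth muscle actin gene, at 79531 to 102094 on cerebellar and 112281 to 124547 on neocortical arrays, which passed as lower. The other 3 tested did not pass, with log2 differences of 0.24 for Pdgfrb, 0.11 for Rgs5 and -0.59 for Notch3. Rgs5 read 219 to 313.3 over the arrays, in or near the dim range. The part of vessel cells in the Efnb2 difference was not tested, nor was that of the Gapdh and actin ratios and the other marker sums given above. In bulk samples, fewer cells of a type and less RNA per cell cannot be told apart.

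Efnb1, the X-linked ephrin-B ligand, did not differ past the threshold at any of its 3 probe sets. The brightest, 1418286_a_at, read 1515, 1237 and 1549 on cerebellar and 1724, 1714 and 1597 on neocortical arrays. These groups did not overlap, with the cerebellar one lower, yet the log2 difference of -0.23 (95% confidence interval -0.55 to 0.09, limma adjusted p = 0.338) was small. The other probe sets overlapped between regions and had differences of 0.12 and -0.17, so the 3 probe sets of Efnb1 did not share a sign.

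Efnb3, a ligand known as a midline barrier to corticospinal axons, had 1 probe set with 425.9, 601.4 and 1106 on cerebellar and 581.2, 711.5 and 619.9 on neocortical arrays. The cerebellar arrays spread on both sides of the neocortical ones. The log2 difference was 0.05 (95% confidence interval -0.68 to 0.78, limma adjusted p = 0.946) and became -0.33 without cerebellar array 3. That array also had the highest summed signal of fibroblast and meningeal markers, 221534, against 58098 and 129317 on the other cerebellar arrays, and the part of those cells in the Efnb3 value was not tested.

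Efna5, an ephrin-A ligand best known for repelling retinal axons in the visual midbrain, was measured in a bright and a dim probe set. The bright one, 1436866_at, read 1900, 1483 and 2230 on cerebellar and 2947, 2329 and 2412 on neocortical arrays. Every cerebellar array lay below every neocortical one, and the signal was 1.38-fold lower in cerebellar astrocytes, and the log2 difference of -0.47 ± 0.173 (SE) missed the threshold (limma adjusted p = 0.126). With arrays scaled to a common median it did pass, with a log2 difference of -0.60 (adjusted p = 0.0474), or -0.51 relative to the median of all probe sets under that scaling. The dim probe set, 1421796_a_at, ran from 69.2 to 295.7 on cerebellar and from 33.9 to 247.6 on neocortical arrays and was not tested.

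Efna1, Efna3 and Efna4 are neighbours on chromosome 3, with no other protein-coding gene annotated between them in the RefSeq table. Efna1, a ligand of EphA2 that inflammatory cytokines induce, gave different values at its 2 probe sets although the annotation lists both with the same transcript. At 1448510_at it read 192.4, 292.6 and 181 on cerebellar and 374.7, 531.9 and 403.8 on neocortical arrays, with no overlap. Efna1 was 1.99-fold lower there in cerebellar astrocytes, a log2 difference of -0.99 ± 0.302 (SE). This difference missed the threshold (limma adjusted p = 0.0701) but passed with the floor at the 40th percentile (0.0445). The cerebellar values were in or near the dim range, with 192.4 and 181 inside it. At the brighter 1416895_at the values were 795.4, 721.3 and 489.4 against 381.8, 807.5 and 738.5, the groups overlapped, and the difference was 0.10 (95% confidence interval -0.62 to 0.82, adjusted p = 0.879). The 2 probe sets thus differed in sign and no direction can be given for Efna1.

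Efna3, the ligand that hippocampal astrocytes of the mouse present to spines, read 246.1, 251.9 and 355.2 on cerebellar and 547.7, 336.1 and 519.2 on neocortical arrays at its brighter probe set, 1431170_at. The cerebellar values 246.1 and 251.9 lay in the dim range. The groups overlapped at 1 array of each region, and the difference was -0.71 (95% confidence interval -1.37 to -0.04, limma adjusted p = 0.166). Its other probe set, 1455344_at, had a difference of -0.38 with all 6 arrays in the dim range. Efna4 had 672.6, 674.3 and 458.1 on cerebellar and 803.7, 646.1 and 751.1 on neocortical arrays, a difference of -0.30 (95% confidence interval -0.80 to 0.19, adjusted p = 0.421). All 3 brightest probe sets of these neighbours thus missed the threshold.

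Efna2, an ephrin-A ligand of the developing midbrain map, varied widely between arrays at its tested probe set, which lay in the dim range on 2 of the 6 arrays. That probe set, 1444606_at, read 22.6, 449.7 and 578.6 on cerebellar and 225.4, 401.3 and 292.1 on neocortical arrays, with cerebellar array 1 below the floor. Its difference was -0.24 (95% confidence interval -1.92 to 1.45) and turned to 0.78 without that array, so it carries no direction. The other probe set, 1417521_at, lay in the dim range on all 6 arrays and was not tested.

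**Figure D3:**
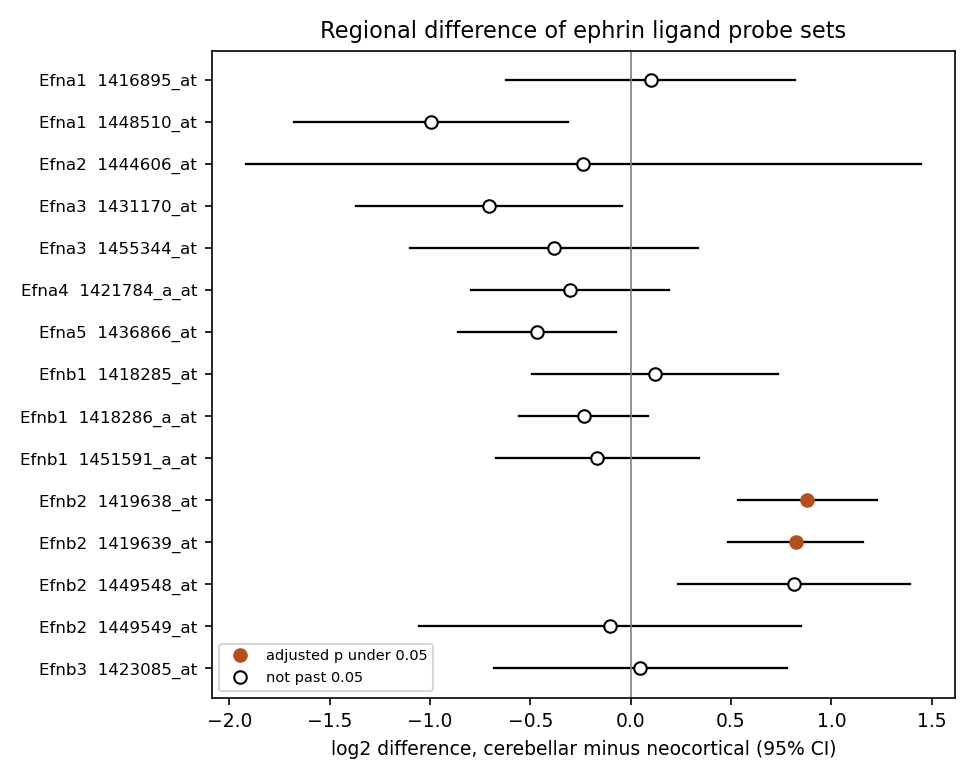
Log2 difference of the 15 tested ephrin ligand probe sets, cerebellar minus neocortical, with 95% confidence intervals. Filled points have an adjusted p under 0.05 and belong to Efnb2, at 0.82 and 0.88. The intervals are not adjusted for the number of probe sets, so 4 of the 6 that exclude 0 belong to probe sets that did not pass.

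Across the family, the groups did not overlap at 6 of the 15 tested probe sets (40%), with 3 higher and 3 lower in cerebellar astrocytes, against 32.2% of all tested probe sets. The 3 higher ones were all of Efnb2, and the 3 lower ones were of Efna1, Efna5 and Efnb1. Without the filter, the probe sets that were too dim to test, of Efna2 and Efna5, had differences of 0.28 and -0.21 and adjusted p values of 0.885 and 0.959.

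Of the 14 genes of Eph receptors, which these ligands bind, 9 were tested, and 1 was lower and none higher in cerebellar astrocytes, a share near the 12.7% of all genes that passed in either direction. Epha4, which binds ephrins of both classes, read 2039, 1066 and 1451 on cerebellar and 2528, 2387 and 2814 on neocortical arrays, a 1.75-fold lower signal (limma adjusted p = 0.0472), although only 1 of its 4 tested probe sets passed. The call sat at the margin and was lost without cerebellar array 2 or 3 or any 1 neocortical array, without the filter, without the variance trend and with probe sets averaged. Ephb6, a receptor without kinase activity, read 704, 522.1 and 414.7 against 252.4, 312.8 and 237.9. Its log2 difference was 1.01 with an adjusted p of 0.0501, and its neocortical values were in or near the dim range. Ephb6 passed, as higher, in 4 of 13 alternatives. These were the values as deposited (0.0217), median scaling (0.0477), the floor at the 40th percentile (0.0363) and leaving out cerebellar array 3 (0.046). The others missed the threshold, among them no filter (0.137) and leaving out cerebellar array 1 (0.121) or 2 (0.0999). Leaving out any 1 neocortical array gave 0.0882 to 0.151. Ephb6 also passed with probe sets averaged, but it had 1 tested probe set, so there was nothing to average. Epha3 had a difference of 1.13 that did not pass (adjusted p = 0.147) but did without cerebellar array 3. The neocortical values of Epha3 were 227.5, 316 and 267.6, in or near the dim range. Ephb4, the receptor of Efnb2 on veins, had a signal of 542.1 ± 203 in cerebellar against 664 ± 63.9 in neocortical astrocytes (SD for 3 arrays each) and did not pass.

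Of 20 genes for partners and proteases on the ephrin side 17 were tested, with 1 higher and 1 lower. Among all genes tested 5.3% were higher and 7.36% lower. Ptpn13, a phosphatase that removes phosphate from the ephrin-B tail, was at 4846, 5762 and 4923 on cerebellar and 8053, 6960 and 8638 on neocortical arrays, without overlap and 1.52-fold lower (limma adjusted p = 0.0131, with 1 of 2 probe sets past the threshold). Tspan6, a tetraspanin membrane protein, was at 20774, 23989 and 18865 against 12335, 12989 and 11254, 1.73-fold higher (adjusted p = 0.00223), and passed at both of its probe sets. Adam10, the protease that sheds ephrins from the membrane, had a log2 difference of 0.36, and Rgs3, which binds the ephrin-B tail, one of -0.39. Neither passed (adjusted p = 0.0782 and 0.0721), though Adam10 did without cerebellar array 2 and Rgs3 did with median scaling and with probe sets averaged.

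Of 18 effectors that act behind Eph receptors 16 were tested, with 1 lower and none higher. It was Sdc2, the syndecan that EphB2 phosphorylates in spines, at 8644, 11264 and 9980 on cerebellar and 13876, 13406 and 14770 on neocortical arrays, 1.41-fold lower (limma adjusted p = 0.0218). Both Ptpn13 and Sdc2 missed the threshold without the filter, without the variance trend and without neocortical array 1 or 3, and Sdc2 also without neocortical array 2 or cerebellar array 3. Together 4 of the 42 genes tested in the 3 lists passed, against 12.7% of all genes. The count was 1 without neocortical array 1 or 3 and 2 without neocortical array 2, and Tspan6 was called in all of these. The median log2 difference was 0.09 for the receptors, -0.27 for the ephrin-side list and -0.11 for the effectors.

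**Figure D4:**
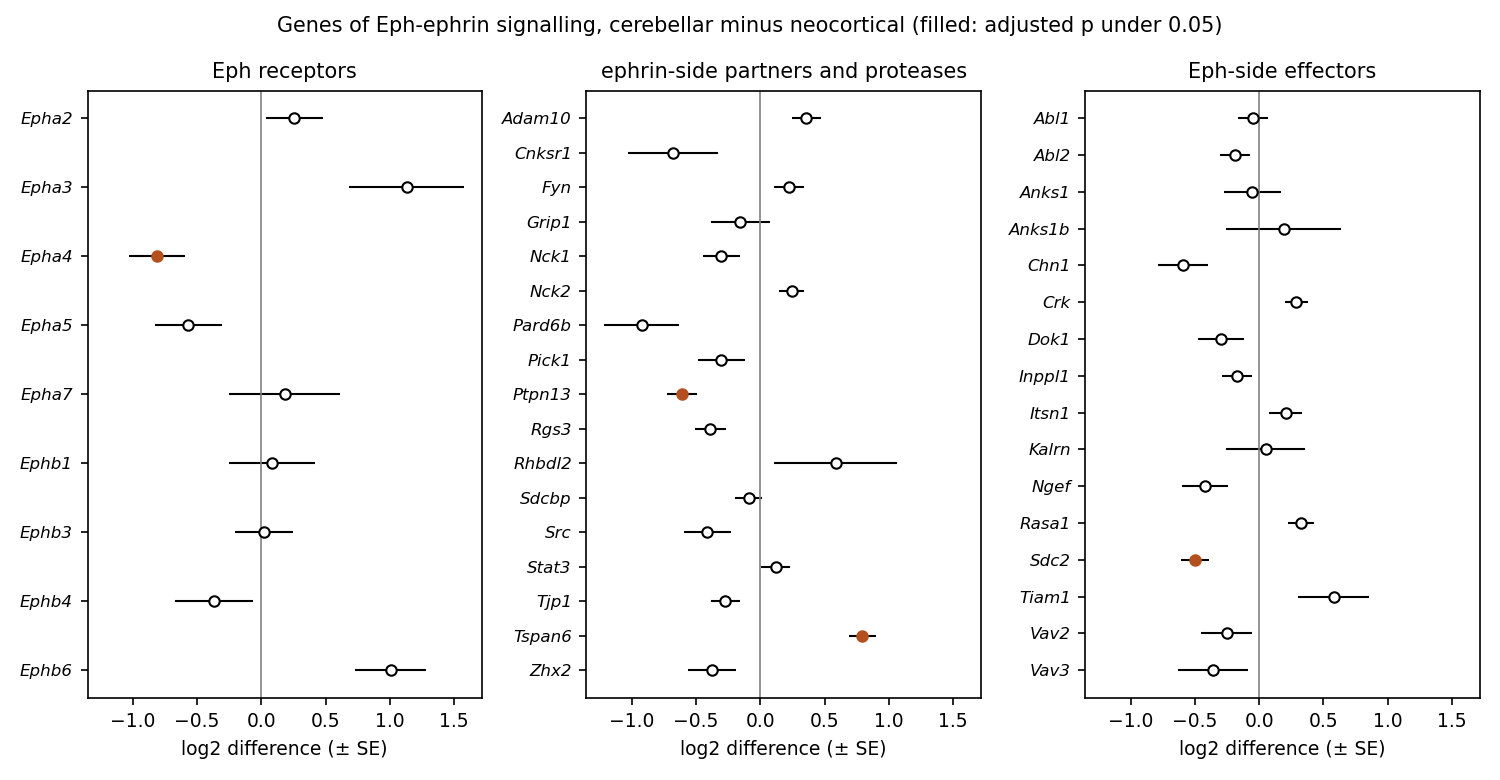
Log2 difference (cerebellar minus neocortical, with standard error bars) of the tested Eph receptors, ephrin-side partners and proteases, and Eph-side effectors, each by its brightest probe set. Filled points, with an adjusted p under 0.05, are Epha4, Ptpn13 and Sdc2 on the lower side and Tspan6 on the higher side.

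Among the 669 genes higher in cerebellar astrocytes, 304 had a larger log2 difference than Efnb2. The genes whose log2 signal followed that of Efnb2 most closely over the 6 arrays were Rps6ka3 (Pearson r = 0.992), Hdac2 (0.992) and Slc7a6 (0.99). The arrays share a difference between 2 regions, and 114 of 12613 genes had an r above 0.95, so the likeness of these 3 is a description.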

How the data were processed

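The data are 6 single-colour arrays, 3 cerebellar and 3 neocortical, grouped by their titles. The authors deposited 1 linear intensity for each probe set on each array, and their summarisation software is not given in the sources used here. Medians of the deposited intensities ran from 284.5 to 361.2, so the 45037 probe sets other than 64 controls were quantile normalized, raised to a floor of 62.2 (the 20th percentile) and put on the log2 scale. Tests covered the 27022 probe sets whose mean log2 value reached the 40th percentile, run with limma 3.58.1 in R 4.3.3 (variance trend, two-sided, Benjamini-Hochberg, threshold 0.05), checked on simulated data. Symbols came from the platform annotation, updated by Entrez ID through a GRCm38.p6 gene table (34741 of 34945 probe sets with 1 symbol matched). A gene was called by its brightest probe set. All 8 ligands were described, with listed pathway genes named where they passed. Genes outside this rule (Ephb6, Epha3, Ephb4, Adam10, Rgs3 and the markers of astrocytes and other cells) were named after their values were seen. The members and lists were chosen with earlier results of these data known. Deviations of same-numbered arrays correlated at 0.18, 0.188 and 0.101, and those of arrays with different numbers at -0.182 to 0.0225. The titles give the numbers without stating a pairing. The main fit used none, and a replicate block was tried as an alternative. Other alternatives were the scaling, the filter, the floor, the variance trend, averaging the probe sets of a gene and leaving out each array. The number of arrays limits the precision.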

Additional observations from a re-analysis of the deposited data

How the results depend on the processing

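Of 205 values of the tested ephrin ligand probe sets under the alternatives, 185 kept both their direction and their side of the threshold, and 4 calls, all of Efnb2 and all under median scaling, no filter or no variance trend, were lost. Another 4 calls were gained, Efnb2 1449548_at with the values as deposited and with the replicate block, Efna5 1436866_at with median scaling and Efna1 1448510_at with the higher floor. Of the 12 that changed sign, none passed. These were Efnb2 1449549_at with the values as deposited (0.10) and without 1 array (range -0.39 to 0.24), Efnb3 with median scaling (-0.013) and without 1 array (-0.33 to 0.36), Efna2 under the higher floor, the 40th percentile (0.30) and without 1 array (-0.83 to 0.78), and, without 1 array, Efna1 1416895_at (-0.24 to 0.31) and Efnb1 1418285_at (-0.14 to 0.39). The count of ligand genes past the threshold was 0 without the filter, without the variance trend and with averaged probe sets in limma, where 1, 3 and 2 genes had an unadjusted p under 0.05, and 1 without any 1 array. With median scaling it was 1, but the gene was Efna5 in place of Efnb2. Counts over the whole array were 819 higher with median scaling, 577 higher and 704 lower without the filter (more probe sets tested), 676 and 914 without the variance trend, and 548 to 1233 higher and 665 to 1542 lower without 1 array (fewer samples). The 4 receptor, partner and effector genes became 7 with median scaling, 2 without the filter, 1 without the variance trend and 1 to 5 without 1 array. The causes of these changes were not tested. The replicate block moved 1419639_at to an adjusted p of 0.00936 and changed no ligand call other than that of Efnb2 1449548_at.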
